A study of Rattus norvegicus with 2 samples.

Results

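The cornified envelope genes described here were Sprr1a, Sprr1b, Ivl, Evpl, Ppl, Scel, Cnfn and Ecm1, whose products are built into the envelope or its surroundings, and the transglutaminases Tgm1 and Tgm3. They were chosen by name, with earlier results of these data known. A probe set was used where the platform annotation gave it exactly 1 gene and that gene carried one of these symbols. All 10 genes were found among the 14217 genes measured, each with 1 probe set, so no member had another probe set to compare with. RefSeq also lists Sprr1b as an older name of Sprr1a, and the pair was kept apart by the gene identifiers of the platform annotation. Probe sequences were not used here, so which of the pair the Sprr1b probe set binds is unsettled, and each value given for Sprr1b below is that of the probe set annotated to it.

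Esophageal tissue of male Sprague-Dawley rats, an outbred laboratory strain, was measured on Affymetrix 230 2.0 arrays. The treated group received OSU-HDAC42, an inhibitor of histone deacetylases, by gavage in 7 doses of 50 mg/kg, adding up to 350 mg/kg, and the control group received vehicle in the same way. The rats were bought at 5 to 6 weeks of age, and the esophagi were collected on day 15, which was 24 hours past the final dose. There was 1 array per group, and the labels leave unsaid how many rats gave the RNA on it. The spread between rats therefore cannot be given, and there are no p-values.

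The cornified envelope is a shell of protein laid down beneath the plasma membrane of squamous keratinocytes in the last step of their differentiation. Transglutaminases weld its precursors together through bonds between glutamine and lysine side chains, and the finished shell gives the surface of a stratified epithelium its resistance to abrasion. The esophagus of the rat, unlike the human one, is lined by a keratinised squamous epithelium, in which such envelopes form. Involucrin and the plakins envoplakin and periplakin are known as early scaffold proteins of the envelope, and the small proline-rich proteins as later cross-bridges.

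In the OSU-HDAC42 sample the probe set annotated to the small proline-rich gene Sprr1b stood 4.61-fold above the vehicle sample, while its close relative Sprr1a differed by 1.04-fold. Ivl, which encodes involucrin, was 1.51-fold higher. The other 7 members were lower (7 of 10, where 52.8% of all genes were lower and 46.7% higher), the furthest being Evpl at 1.61-fold and Cnfn at 1.42-fold, and the cross-linking enzymes Tgm1 and Tgm3 were lower by 1.04-fold and 1.23-fold. The 2-fold count takes genes whose brighter array was at or over an expression floor, set at the median intensity of all probe sets (49.1). By that count 1 of 10 members was at least 2-fold higher, where 1.88% of the 9560 genes at the floor were, and 0 of 10 members were at least 2-fold lower, where 3.17% of those genes were. The median difference over the members was -0.077 on the log2 scale, against -0.027 over all genes at the floor.

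Intensities are in arbitrary units and depend on the probes, so levels of different genes were not set against each other. Each difference is a log2 value, OSU-HDAC42 minus vehicle, so a positive sign means higher after OSU-HDAC42. Where a gene had several probe sets, these scattered around their gene's mean with a pooled SD of 0.29 (4908 probe sets in 2126 genes), the sole measure of error. It covers differences between probe sets of a gene, whatever their source, over all intensities at the floor. The spread between rats is not in it. The differences of Sprr1a, Ppl, Tgm1, Scel, Ecm1 and, by a small margin, Tgm3 were smaller than that SD, and those of Sprr1b, Ivl, Evpl and Cnfn were larger. The share of all genes under that SD was not worked out. Small differences are usual among bright genes, with an SD of 0.17 over the 332 genes with a mean intensity of 4000 or more. That range holds 5 of the members.

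**Figure D1:**
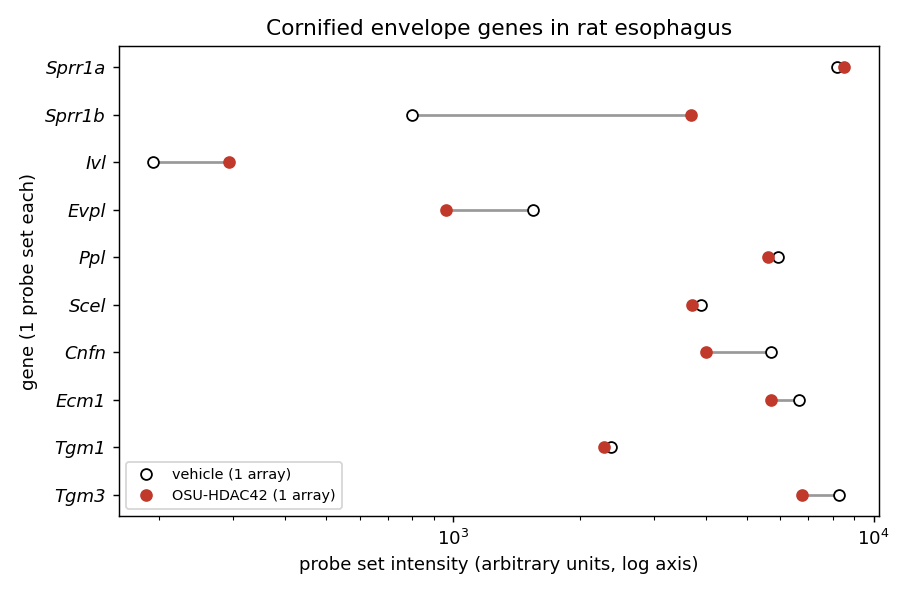
Probe set intensity of the 10 cornified envelope genes (log axis, arbitrary units), with open circles for vehicle and filled circles for OSU-HDAC42, with a line joining both values of a gene. The long line is Sprr1b, from 799 to 3688, and Ivl and Evpl show shorter lines in opposite directions.

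Small proline-rich proteins are short chains rich in proline, glutamine and lysine that transglutaminases join into bridges between other envelope proteins. The probe set of Sprr1b (1385686_at) had an intensity of 799 on the vehicle array and 3688 on the OSU-HDAC42 array, a difference of 2.21. Sprr1a (1371248_at) had 8178 on the vehicle array and 8501 on the OSU-HDAC42 array, a difference of 0.056. The probe sets annotated to these relatives thus differed unequally, and the ratio of Sprr1b to Sprr1a intensity was 4.44-fold higher in the OSU-HDAC42 sample, a value that rests on the annotation keeping the pair apart. Of all 9560 genes at the floor, 8 (0.0837%) were at least as far higher as Sprr1b, Sprr1b included, and of the 1934 genes with a mean intensity of 1000 to 4000, Sprr1b alone (0.0517%). Of the 332 genes with a mean intensity of 4000 or more, 29.5% were at least as far higher as Sprr1a. Sprr1a was near the upper end of the intensity scale, which reached 14438 and 14947 outside the array controls, and whether its signal was compressed there was not tested.

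Sprr1a and Sprr1b lie close together on chromosome 2 in the GRCr8 assembly, with Sprr3 as the one protein-coding gene between them. The RefSeq promoter table of GRCr8 held a window for 9 of the 10 members. The 250 bases before the start site of Sprr1a and those of Sprr1b could be aligned with 139 identical and 89 mismatched bases, 61.0% of the aligned pairs. Each window was searched on both strands for TGANTCA, where N is any base, and for TATAAA, the TATA box. The first pattern takes in TGAGTCA and TGACTCA, the core of sites bound by AP-1, and is looser than that core. AP-1 factors are dimers of FOS and JUN proteins that are known regulators of envelope genes. TGANTCA was found in 4 of 9 member windows, those of Sprr1a, Sprr1b, Scel and Ecm1, and in 6.34% of all 33469 windows in the table. TATAAA was found in 4 of 9 member windows, those of Sprr1a, Sprr1b, Tgm3 and Ecm1, and in 12.9% of all windows. Such a match is a description of the letters and does not show that a factor binds.

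The last 150 bases before the start site are shown for the 4 members with a TGANTCA match. Their differences were 2.21 for Sprr1b, 0.056 for Sprr1a, -0.072 for Scel and -0.22 for Ecm1. A link between such matches and the differences was not tested. Matches to TGANTCA and TATAAA are in capitals, each sequence is read 5′ to 3′ along its gene, and coordinates are those of GRCr8. Sprr1b covers chr2:180706356-180706505 on the minus strand, Sprr1a chr2:180752626-180752775 on the minus strand, Scel chr15:86754482-86754631 on the plus strand and Ecm1 chr2:185981607-185981756 on the minus strand.
Sprr1b: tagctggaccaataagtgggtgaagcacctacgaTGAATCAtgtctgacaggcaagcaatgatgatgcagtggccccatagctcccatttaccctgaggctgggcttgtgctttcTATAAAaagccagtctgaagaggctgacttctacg
Sprr1a: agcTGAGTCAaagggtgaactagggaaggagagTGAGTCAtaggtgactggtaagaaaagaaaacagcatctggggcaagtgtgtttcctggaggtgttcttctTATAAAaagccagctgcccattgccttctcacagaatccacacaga
Scel: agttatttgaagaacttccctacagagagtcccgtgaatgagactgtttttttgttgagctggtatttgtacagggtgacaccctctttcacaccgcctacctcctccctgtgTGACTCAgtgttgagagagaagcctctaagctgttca
Ecm1: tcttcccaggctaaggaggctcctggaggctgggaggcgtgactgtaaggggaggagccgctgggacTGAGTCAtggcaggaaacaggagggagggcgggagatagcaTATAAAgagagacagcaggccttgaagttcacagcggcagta
In these lines the match of Sprr1b begins 116 bases before the start site and reads TGAATCA, which is not the AP-1 core given above. Sprr1a has TGAGTCA at 117 bases and again at 147 bases. Both genes carry TATAAA, at 35 bases in Sprr1b and at 46 bases in Sprr1a, so the pair shares the order of both motifs. Scel has TGACTCA at 37 bases with no TATAAA match, and Ecm1 has TGAGTCA at 83 bases and TATAAA at 42 bases.

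Involucrin is a glutamine-rich rod that is among the first proteins to be cross-linked at the membrane. Ivl (1369846_at) had an intensity of 194 on the vehicle array and 293 on the OSU-HDAC42 array, a difference of 0.60 (1.51-fold higher). Its mean intensity lay in a range in which genes varied widely. Among the 3832 genes with a mean intensity of 200 to 1000, 270 (7.05%) were at least as far higher as Ivl. With a threshold of 1.5-fold, 2 of 10 members were higher (Sprr1b and Ivl) and 1 was lower (Evpl), where 7.58% and 10.9% of all genes at the floor were.

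Envoplakin and periplakin, the products of Evpl and Ppl, are plakin proteins that form dimers and tie the envelope to desmosomes and keratin filaments. Evpl (1389115_at) had 1552 on the vehicle array and 962 on the OSU-HDAC42 array, a difference of -0.69 (1.61-fold lower). Ppl (1391187_at) had 5937 and 5612, a difference of -0.081. The partners therefore differed unequally, and the ratio of Ppl to Evpl intensity was 1.53-fold higher in the OSU-HDAC42 sample. Among the 1934 genes with a mean intensity of 1000 to 4000, 39 (2.02%) were at least as far lower as Evpl. For Ppl the share was 26.2% of the 332 genes of 4000 or more.

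Sciellin, encoded by Scel, is a precursor of the envelope in stratified epithelia. Scel (1385099_at) had 3892 on the vehicle array and 3702 on the OSU-HDAC42 array, a difference of -0.072, and 35.5% of genes of 1000 to 4000 were at least as far lower. Cornifelin, encoded by Cnfn, is a small cysteine-rich envelope protein. Cnfn (1382323_at) had 5689 on the vehicle array and 4006 on the OSU-HDAC42 array, a difference of -0.51 (1.42-fold lower). Bright probe sets differed little between the arrays, with an SD of 0.17 among the 332 genes with a mean intensity of 4000 or more, and of those genes 2 (0.602%), Cnfn included, were at least as far lower as Cnfn. The extracellular matrix protein 1 gene, Ecm1, encodes a secreted glycoprotein made by differentiating keratinocytes. Ecm1 (1388698_at) had 6652 on the vehicle array and 5698 on the OSU-HDAC42 array, a difference of -0.22, and 7.53% of the same 332 genes were at least as far lower.

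Transglutaminase 1 is the membrane-anchored enzyme that begins the cross-linking, and transglutaminase 3 is a soluble enzyme that is activated by proteolysis and joins small proline-rich proteins. Tgm1 (1370051_at) had 2371 on the vehicle array and 2285 on the OSU-HDAC42 array, a difference of -0.053, and 38% of genes of 1000 to 4000 were at least as far lower. Tgm3 (1378675_at) had 8289.6 and 6763, a difference of -0.29 (1.23-fold lower). Neither enzyme was higher in the sample in which the substrate gene Sprr1b was 4.61-fold higher. Of the 332 genes with a mean intensity of 4000 or more, 12 (3.61%) were at least as far lower as Tgm3. Within 1.2-fold were 5 of the 10 members (Sprr1a, Ppl, Tgm1, Scel and Ecm1), where 50.7% of all genes at the floor were. That share was larger among bright genes, 68.8% over genes of 1000 to 4000 (4 members) and 88.9% above 4000 (5 members).

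**Figure D2:**
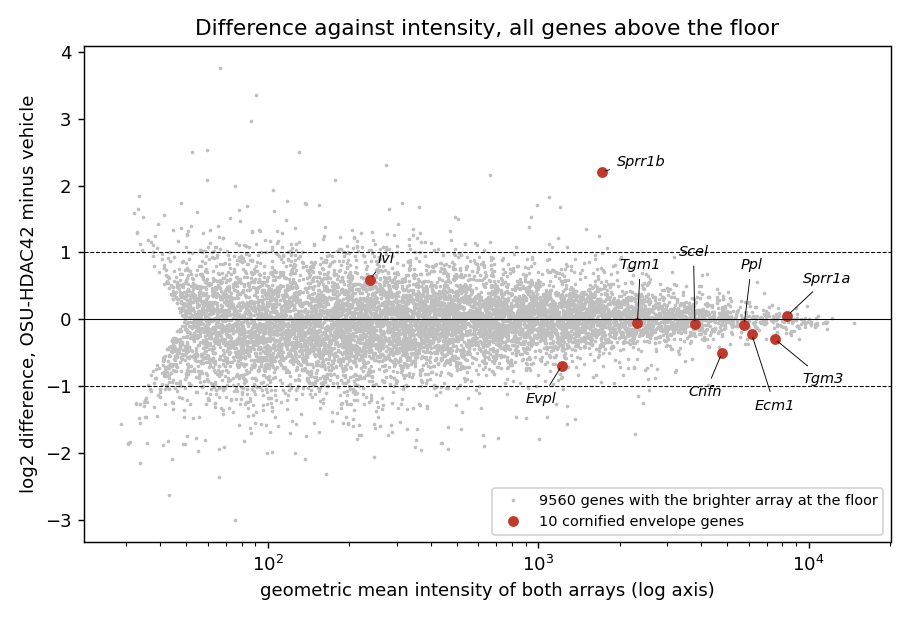
Difference in log2 intensity (OSU-HDAC42 minus vehicle) against the geometric mean intensity of both arrays (log axis) for the 9560 genes at the floor (grey) and the 10 cornified envelope genes (red), with dashed lines at 2-fold. The cloud narrows as intensity rises, and Sprr1b at 2.21 lies outside it while Cnfn at -0.51 lies at its lower edge.

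The members' brightness bears on how much each could be seen to differ. Of the 10 members, 5 had a mean intensity of 4000 or more (Sprr1a, Ppl, Tgm3, Cnfn and Ecm1), 4 had 1000 to 4000 (Sprr1b, Evpl, Tgm1 and Scel) and 1, Ivl, had 200 to 1000. The SD of differences was 0.45 among genes of 200 to 1000, 0.32 among genes of 1000 to 4000 and 0.17 above that. Among the genes of 1000 to 4000, 10 (0.517%) were at least 2-fold higher, Sprr1b among them. Above 4000, 0 of 332 genes were 2-fold higher or lower, and 88.9% were within 1.2-fold.

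Sprr1b, Sprr1a and Ivl belong to the epidermal differentiation complex, a dense run of genes for envelope precursors and related proteins. Along chromosome 2 from Loricrin to S100a10, a stretch chosen after values were seen, RefSeq places 55 protein-coding genes, of which 16 were measured and 15 were at the floor. Of these 15 genes, 11 were higher and 4 lower, where 46.7% of all genes at the floor were higher, and the median difference was 0.050. Within 1.2-fold were 9 of the 15, where 50.7% of all genes were, 68.8% of genes of 1000 to 4000 and 88.9% of those above. At least 2-fold higher were 2 of the 15, where 1.88% of all genes were. They were Sprr1b and Sprr2d, another small proline-rich gene, which had 297 on the vehicle array and 613 on the OSU-HDAC42 array (2.07-fold). Sprr3, which lies directly between Sprr1b and Sprr1a among the protein-coding genes, had 10806 and 10341, a difference of -0.064. The higher values were therefore not shared by all neighbours. Loricrin, the main protein of the envelope in epidermis, differed by 0.013, and Kplce, which was named after its value was seen, had 2763 and 1670 (1.66-fold lower). Sprr3 and Loricrin, like Sprr1a, were near the upper end of the intensity scale, and whether their signals were compressed there was not tested. The Sprr2 genes are many and alike, and which of them the Sprr2d probes bind was not tested.

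**Figure D3:**
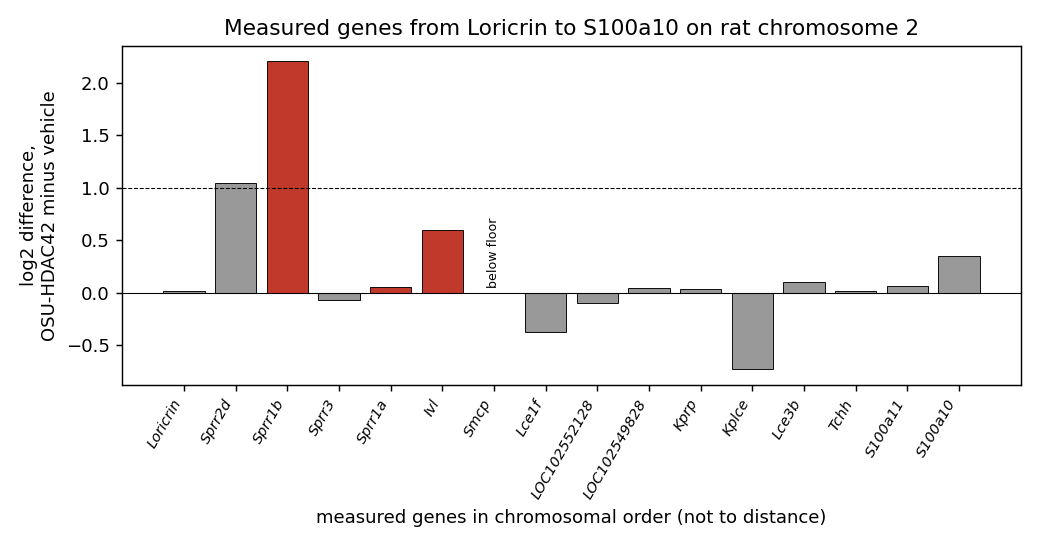
Difference in log2 intensity (OSU-HDAC42 minus vehicle) for the 16 measured genes from Loricrin to S100a10, in the order RefSeq gives along rat chromosome 2 and not to distance, with cornified envelope members in red and a dashed line at 2-fold. Sprr2d at 1.05 and Sprr1b at 2.21 stand above the line, and Sprr3 and Sprr1a next to them lie near 0.

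Of 40 other genes listed as parts of the envelope, 17 were measured and 15 were at the floor, 8 higher and 7 lower, with a median of 0.013. The shares over all genes at the floor were 46.7% higher and 52.8% lower. Within 1.2-fold were 10 of the 15 (66.7%). That share was 50.7% over all genes at the floor, 68.8% over genes of 1000 to 4000 and 88.9% above 4000. At least 2-fold higher was 1 of the 15, Sprr2d, where 1.88% of all genes were, and 0 were 2-fold lower, where 3.17% were. Apart from Sprr2d, the furthest were Tgm2 at 0.50, the gene of tissue transglutaminase, the late envelope gene Lce1f at -0.37 and the cystatin gene Cst6 at -0.35, whose product inhibits cysteine proteases. A second probe set of Tgm2 went the same way (0.77). The small proline-rich genes were unlike each other, with Sprr1b and Sprr2d past 2-fold and Sprr1a and Sprr3 at 0.056 and -0.064. Both Sprr1a and Sprr3 were near the upper end of the intensity scale, where compression was not tested.

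Proteases of cornification and enzymes of the lipid envelope, the layer of ceramides bound to the outside of the protein shell, held no gene with a 2-fold difference. Of 33 listed genes 18 were measured and 16 were at the floor, 5 higher and 11 lower, with a median of -0.052. Over all genes at the floor, 46.7% were higher and 52.8% lower, with 1.88% and 3.17% at least 2-fold higher and lower. The furthest were the kallikrein gene Klk6 at 0.64, the membrane protease gene St14 at -0.46, the lipase-family gene Pnpla1 at 0.29 and its cofactor gene Abhd5 at -0.26, with -0.86 on a second Abhd5 probe set.

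Desmosomes are the cell junctions to which the plakins attach the envelope. Of 13 listed desmosome genes 10 were measured, all at the floor, 2 higher and 8 lower, with a median of -0.13. Over all genes at the floor, 46.7% were higher and 52.8% lower. Dsc1, the desmocollin of differentiated layers, had 1997 on the vehicle array and 815 on the OSU-HDAC42 array, a difference of -1.29, and was the 1 gene of the 10 at least 2-fold lower, where 3.17% of all genes were. The plakophilin genes Pkp2 and Pkp3 differed by 0.93 and -0.66, both from probe sets near the floor, and Dsc2 by -0.42. Dsp, which encodes the plakin desmoplakin, differed by -0.14 on its brighter probe set and by -0.67 on its dimmer one.

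Transcription regulators of late keratinocyte differentiation held no gene with a 2-fold difference. Of 23 listed genes 18 were measured and 13 reached the floor. Of those, 9 were higher and 4 lower, and the median was 0.12. Over all genes at the floor, 46.7% were higher and 52.8% lower, with 1.88% and 3.17% at least 2-fold higher and lower. Of the AP-1 genes, whose products bind TGAGTCA and TGACTCA, Fos had 339 on the vehicle array and 478 on the OSU-HDAC42 array (1.41-fold). Junb differed by 0.37, from values near the floor (46.3 on the vehicle array and 59.6 on the OSU-HDAC42 array). Jund had 3419 on the vehicle array and 3245 on the OSU-HDAC42 array on its brightest probe set, a difference of -0.075. Fosl1 and Fosl2 were below the floor. Jun has no settled direction here, with -0.24 on its brightest probe set and 0.23 and 0.057 on the other probe sets at the floor. Cebpa, a factor of differentiating keratinocytes, differed by 0.41 on its brightest probe set and by 0.81, 0.87 and 0.87 on the other probe sets at the floor, all in the same direction.

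Markers of squamous epithelium were also read, of which 18 reached the floor. They are not particular to the esophagus, so they could not settle the tissue label. Krt13 and Krt4, keratins of the suprabasal esophagus, had 14438 and 11052 on the OSU-HDAC42 array and differed by -0.050 and -0.059. Among the 7 suprabasal marker genes that reached the floor, the median was -0.050 with 3 higher and 4 lower. Of the 11 basal marker genes 1 was higher and 10 lower, with a median of -0.083. The shares over all genes at the floor were 46.7% higher and 52.8% lower. Of the 7 suprabasal genes 2 were at least 2-fold higher, where 1.88% of all genes were, namely Krt6c, a keratin of activated and wounded epithelium, and Krt10, a keratin of cornifying layers. Krt6c had 674 on the vehicle array and 2167 on the OSU-HDAC42 array (3.21-fold), and its other probe sets differed by 2.21 and 1.32 in the same direction. The 1.32 came from values near the floor (21.1 on the vehicle array and 52.5 on the OSU-HDAC42 array). No probe set was matched to Krt6a or Krt6b, and which of these keratins the Krt6c probes bind was not tested. Krt10 had 168 on the vehicle array and 345 on the OSU-HDAC42 array (2.06-fold). Krt1 of the same list went the other way, with 2330 on the vehicle array and 1824 on the OSU-HDAC42 array, a difference of -0.35. Among the basal genes Itgb4 differed by -1.28 and Itga3 by -0.62. Itgb4 was the 1 basal gene at least 2-fold lower, where 3.17% of all genes at the floor were.

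Marker genes of the muscle layers differed in opposite directions. For the counts below, the shares over all genes at the floor were 46.7% higher and 52.8% lower. All 16 skeletal muscle marker genes had lower values after OSU-HDAC42, with differences from -2.09 (Actn3) to -0.051, a median of -1.10, and a summed intensity of 19973 against 38616. All 8 smooth muscle marker genes were higher, from 0.15 to 1.24 (Tagln), with a median of 0.61 and a summed intensity of 11254 against 7236. Of 8 fibroblast marker genes 7 were higher (median 0.32, sums 20872 against 16630), of 6 endothelial genes 2 (median -0.24, sums 2668 against 2444) and of 5 leukocyte genes at the floor 2 (median 0, sums 1766 against 2453 over all 7 measured). The part of these layers in the members' differences was not tested, and in such bulk tissue fewer cells of a type and less RNA per cell cannot be told apart. The 3′ over 5′ intensity ratio of the beta-actin control, a sign of RNA quality, was 6.29 after OSU-HDAC42 and 7.76 after vehicle. For the GAPDH control this ratio was 2.09 after OSU-HDAC42 and 2.32 after vehicle. The part of RNA quality was not tested either. When both arrays were centred on the median of the 18 epithelial marker genes at the floor, which was -0.070, Sprr1b differed by 2.28, Ivl by 0.67, Evpl by -0.62 and Cnfn by -0.44.

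**Figure D4:**
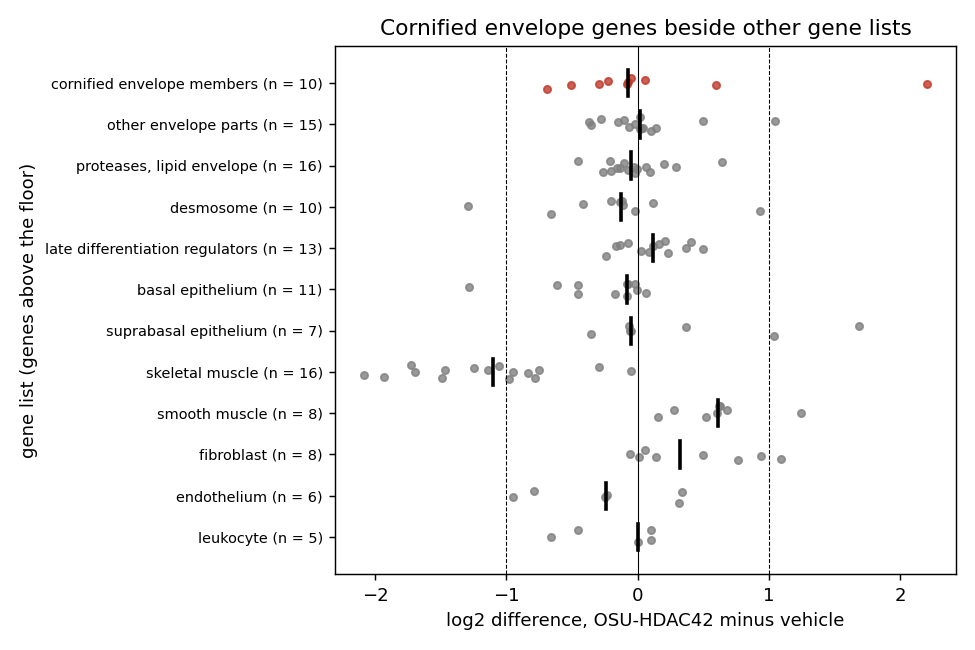
Difference in log2 intensity (OSU-HDAC42 minus vehicle) of each gene at the floor (points) in the cornified envelope members (red) and 11 other gene lists (grey), with the list median as a black bar and dashed lines at 2-fold. The median of the members (-0.077) and those of the epithelial lists lie near 0, skeletal muscle lies to the left at -1.10, and Sprr1b is the single member beyond a dashed line.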

How the data were processed

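Biotin-labelled RNA of 2 samples, 1 per group, was hybridised to arrays, per the labels' protocols. The values the authors deposited are linear intensities, 1 per probe set and array, a unit read from the values themselves. The submitters' processing notes name GCOS and RMA, and how the arrays were scaled is not given in the sources used here. Intensities under 16 were raised to 16 (28.4% and 29.2% of non-control probe sets, no member) and log2 was taken, with no further normalization. Of 31042 non-control probe sets, 20826 had exactly 1 gene symbol, giving 14217 genes, each represented by its brightest probe set. With so few arrays the precision is limited and nothing could be tested. The members and lists were chosen with earlier results of these data known. Of each list, up to 4 genes (of each marker list, up to 2) at the floor with the largest differences were named, with every gene of the first lists at 2-fold. Some further genes, such as Jund and Krt1, were named beside these. Alternatives changed the raised value, scaling, probe set, floor and threshold. Python 3.11.15, pandas 2.3.3, statsmodels 0.14.6 (lowess) and Biopython 1.88 (alignment) were used.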

Additional observations from a re-analysis of the deposited data

How the results depend on the processing

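With 1 array in each group, no difference has an error between rats, and every member rests on 1 probe set. Under 4 other scalings (each array centred, quantile normalization, lowess trend removed, both arrays centred on epithelial markers) all 40 values of the members moved by less than the SD between probe sets of a gene. Centring on array medians or on epithelial markers shifts all genes alike, by 0.021 and 0.070. Values under these centrings were therefore bound to stay within that SD. Only quantile normalization and lowess could move members unequally. Sprr1b ran from 2.18 to 2.28, Evpl from -0.74 to -0.62 and Ivl from 0.60 to 0.67, and Tgm1, from -0.087 to 0.017, was the 1 member seen with both signs. The median over members ran from -0.086 to -0.0061. The counts of 1 member higher and 0 lower held under the 4 scalings. A 3-fold threshold gave the same counts and a 1.5-fold threshold gave 2 higher and 1 lower, both fixed by the differences already given. The floor at the 75th percentile also left the counts as they were. It says little of stability, since Sprr1b, with 3688 on its brighter array, was far over it. Raising values under 32 to 32, raising no value, dropping the floor and averaging over probe sets say nothing of stability, since no member lay under these limits or had several probe sets. Centring on epithelial markers was chosen after seeing the data. No paired analysis was possible because there was a single array per group.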
